A study of Homo sapiens with 16 samples.

Results

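Fibronectin and 8 matricellular or microfibrillar matrix genes (FN1, SPARC, THBS1, THBS2, TNC, SPP1, FBN1, FBLN1 and MATN2) were followed across a human breast cell model of PCSK5 function. The genes were chosen by symbol, and each matched 1 of the 78894 genes in the count table. A filter on low counts kept 7 of the 9 among the 16790 genes tested. THBS2 and SPP1 fell under it.

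Poly(A) RNA was sequenced from 16 wells of a culture on matrigel, 1 library per well, of MCF10DCIS.com cells, a human breast line that forms lesions resembling ductal carcinoma in situ. All cells descend from a single PCSK5-/- clone, which was recovered after editing in medium with GDF11, and each line carries a doxycycline-regulated, V5-tagged PCSK5 allele. The groups, 4 wells each, were the T288P allele with 250 ng/ml recombinant mature GDF11 throughout (T288P+GDF11), the T288P allele without it (T288P), the M452I allele (M452I) and the wildtype allele (WT). Each allele is represented by 1 polyclonal hygromycin-selected line, both T288P groups use the same line, and every group was grown in medium with 2% matrigel and 5 ng/ml EGF, with 1 µg/ml doxycycline added from day 4, until harvest on day 8. The wells of a group come from the same line, so the p-values measure the spread between wells and not between independently made lines.

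Fibronectin is a secreted glycoprotein that cells assemble into fibrils through integrins, and it carries binding sites for collagen, heparin and growth factor complexes. Matricellular proteins such as the thrombospondins, SPARC, tenascin-C and osteopontin sit in the matrix without being its main scaffold, and alter how cells attach to it and receive signals from it. Fibrillin-1 and the fibulins belong to microfibrils and elastic fibres, on which latent TGF-beta family ligands are held. PCSK5 is a proprotein convertase that cleaves the precursor of GDF11, and GDF11 signals through SMAD2 and SMAD3, a pathway for which several matrix genes, FN1 among them, are textbook targets in epithelial cells.

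The libraries held 28452772 to 50760462 counts and 21777 to 25335 detected genes. The breast epithelial markers EPCAM, CDH1, KRT5, KRT14, KRT17, KRT8, KRT18, TP63 and KRT6A were present in every library, with a summed level of 7307 to 12273 CPM (counts relative to the library total per M, with TMM scaling), and CDH1 was never below 218 CPM. PCSK5 averaged 40.8 ± 10.7 CPM in T288P+GDF11, 37.7 ± 13.5 in T288P, 39.5 ± 19.3 in M452I and 45.4 ± 12.0 in WT (SD, n = 4 each), which does not separate the introduced allele from the edited locus. The cells' own GDF11 transcript averaged 7.05 ± 0.738 CPM in T288P+GDF11, 5.75 ± 1.07 in T288P, 5.76 ± 1.06 in M452I and 5.81 ± 1.63 in WT (SD, n = 4 each), and neither gene was called in any comparison. Replicate 4 of M452I and replicate 1 of T288P stood apart from the other wells of their groups. Ribosomal protein genes took 8.66% of the counts in M452I replicate 4, against 11.8% to 12.1% in the other M452I wells, and 11.4% in T288P replicate 1, against 9.93% to 10.3% in the other T288P wells. Without these wells PCSK5 averaged 41.5 ± 13.8 CPM in T288P and 30.4 ± 7.84 in M452I (SD, n = 3 each).

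The comparison of T288P+GDF11 with T288P asks what mature GDF11 changes within 1 line. In the comparisons of T288P+GDF11 with WT and with M452I, line and allele differ as well as GDF11, and these cannot be told apart. In the treated wells FN1, SPARC and TNC rose above untreated T288P, by 4.22-fold, 2.47-fold and 2.38-fold. THBS1 averaged 2.09-fold higher without passing the test, while FBLN1, FBN1 and MATN2 did not pass it either. Of the 7 tested genes, 3 rose and 0 fell (42.9%), where 12.9% of the 16790 genes were called in either direction and 5.07% as higher (edgeR quasi-likelihood test, adjusted p under 0.05). The median log2 fold change was 1.06 over the 7 genes and -0.01 over all genes tested. In such bulk samples a change in the share of cells that express a gene and a change in RNA per cell cannot be told apart.

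**Figure D1:**
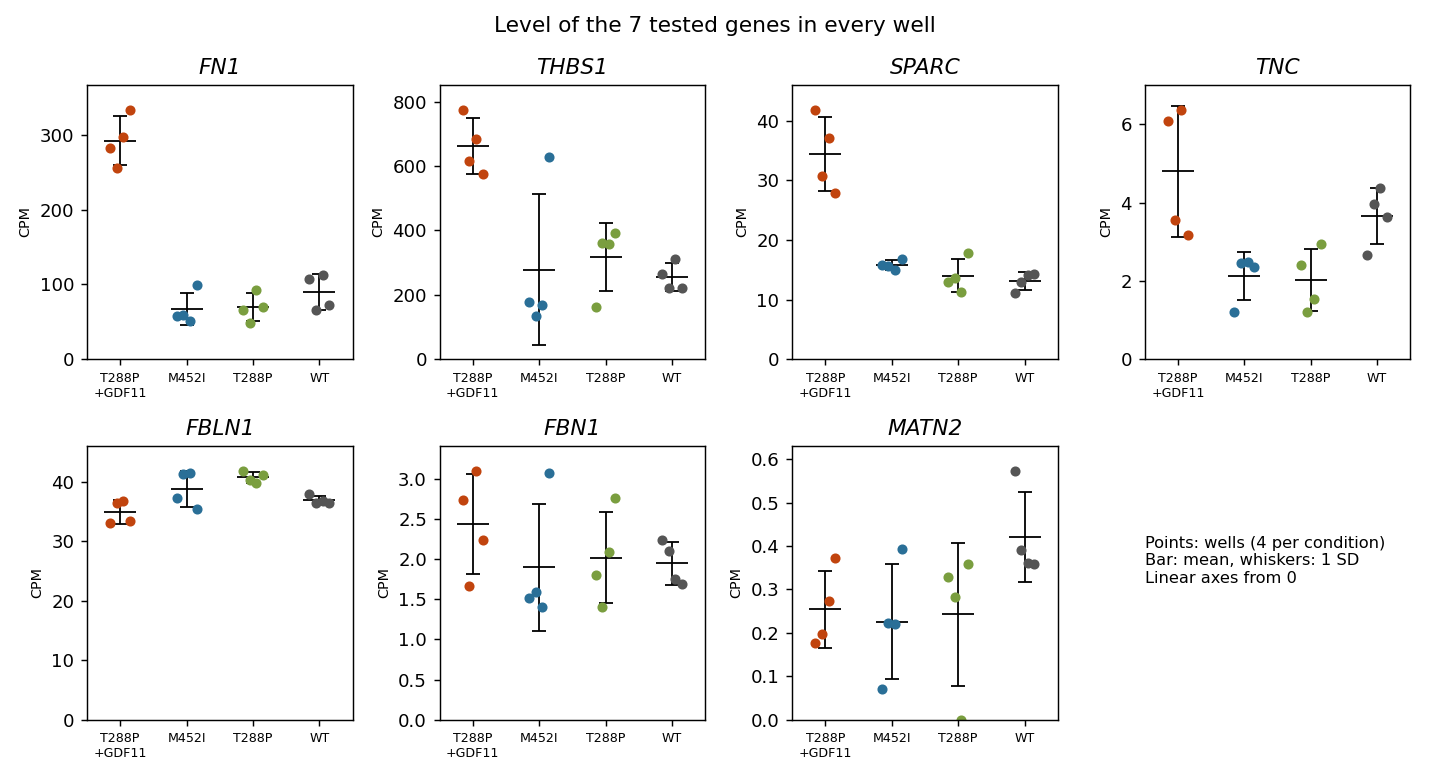
CPM on linear axes from 0 for the 7 tested genes, with a point for each of the 4 wells per condition, the mean as a bar and 1 SD as whiskers. All T288P+GDF11 wells lie above all other wells for FN1 and SPARC, and M452I replicate 4 lies far above the other M452I wells for THBS1.

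FN1 (ENSG00000115414; GRCh38 chromosome 2, 215360440 to 215436172, minus strand) encodes fibronectin. It was at 283, 257, 298 and 334 CPM in the T288P+GDF11 wells, against 66.3, 47.7, 93.3 and 70.3 CPM in the T288P wells. The lowest treated well held 257 CPM and the highest untreated well of any allele 113, so the groups lay far apart. The means were 293 ± 32.5 CPM in T288P+GDF11 and 69.4 ± 18.7 CPM in T288P (SD, n = 4 each), a log2 fold change of 2.08 (SE 0.24; edgeR adjusted p = 7.92e-05). Relative to WT, at 108, 66.2, 113 and 72.4 CPM, the log2 fold change of T288P+GDF11 was 1.71 (SE 0.23; edgeR adjusted p = 0.0001). Relative to M452I, at 57.9, 59.2, 51.5 and 99.0 CPM, it was 2.13 (SE 0.24; edgeR adjusted p = 7.5e-05). Against WT and M452I as well, 3 of the 7 genes rose and 0 fell, where 28.9% of all genes were called against WT (13.8% higher) and 21.2% against M452I (8.27% higher). FN1 was called in all of these comparisons whichever of the 16 libraries was left out.

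SPARC (ENSG00000113140; chromosome 5, 151661096 to 151687165, minus strand) encodes a collagen-binding matricellular glycoprotein, also called osteonectin. Its level was 41.9, 30.8, 37.1 and 27.9 CPM in the T288P+GDF11 wells, against 13.0, 13.6, 11.3 and 17.8 CPM in the T288P wells. The lowest treated well stood above the highest untreated well of any allele. The log2 fold change was 1.30 against T288P (SE 0.14; edgeR adjusted p = 2.76e-05), 1.40 against WT (SE 0.14; edgeR adjusted p = 4.68e-06) and 1.12 against M452I (SE 0.14; edgeR adjusted p = 0.000105). In GENCODE release 29, 7.89% of the SPARC exon bases are shared with the antisense gene CLMAT3, whose reads cannot be separated here because the strand setting is not given.

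TNC (ENSG00000041982; chromosome 9, 115019578 to 115118257, minus strand) encodes tenascin-C, a large matricellular protein of remodelling tissue. It was far less abundant, with 6.09, 3.57, 6.37 and 3.16 CPM in the T288P+GDF11 wells, 2.40, 1.19, 1.53 and 2.93 CPM in the T288P wells, and 1.20, 2.45, 2.48 and 2.35 CPM in the M452I wells. The WT wells held 2.67, 3.98, 4.36 and 3.64 CPM, within the treated range for 3 of the 4. TNC rose by 1.26 on the log2 scale against T288P (SE 0.31; edgeR adjusted p = 0.0141), and it also rose against M452I (1.17, SE 0.31; edgeR adjusted p = 0.0142). Against WT the log2 fold change was 0.39 (SE 0.31) with overlapping wells, and it did not pass (edgeR adjusted p = 0.366). The calls were lost without T288P+GDF11 replicate 1 (edgeR adjusted p = 0.0516 against T288P and 0.0506 against M452I) or without T288P+GDF11 replicate 3 (0.0568 and 0.0543), the wells with the most TNC. The counts behind these values ran from 34 to 257 per library.

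THBS1 (ENSG00000137801; chromosome 15, 39581079 to 39599466, plus strand) encodes thrombospondin-1, a secreted protein able to activate latent TGF-beta. It had the highest level of the set in every well, with 774, 615, 685 and 575 CPM in T288P+GDF11 and 162, 359, 356 and 390.4 CPM in T288P. These groups did not overlap, as was the case for 5 of the 7 genes (FN1, SPARC, TNC, THBS1 and FBLN1) and for 22% of all genes tested. M452I wells held 176, 135, 168 and 628 CPM, and WT wells 263, 221, 311 and 222 CPM. M452I replicate 4 was thus inside the range of the GDF11-treated wells, and T288P replicate 1 was inside the range of the other M452I wells. The log2 fold change of T288P+GDF11 was 1.06 against T288P (SE 0.43; edgeR adjusted p = 0.124), 1.38 against WT (SE 0.43; edgeR adjusted p = 0.0296) and 1.26 against M452I (SE 0.43; edgeR adjusted p = 0.0547), so of these only the difference from WT was called.

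The THBS1 calls depended on which wells were fitted. M452I replicate 4 and T288P replicate 1 were far from their groups in THBS1 itself, so p-values from fits without them are a description only. Against T288P it was called without M452I replicate 4, which is in neither group but enters the shared estimate of the spread (log2 fold change 1.06, SE 0.23; edgeR adjusted p = 0.00704), where 19.9% of all genes were called. It was also called in a fit of only the 2 groups compared (1.09, SE 0.26; edgeR adjusted p = 0.0299; 16.4% of all genes), and without both wells that stood apart (0.85, SE 0.13; edgeR adjusted p = 0.000384; 13.7% of all genes). It was not called with all wells (edgeR adjusted p = 0.124), and with another library left out the edgeR adjusted p was as high as 0.299. Against M452I, leaving out M452I replicate 4 gave a log2 fold change of 2.05 (SE 0.26; edgeR adjusted p = 9.78e-05; 38.1% of all genes), leaving out T288P replicate 1 gave 1.28 (edgeR adjusted p = 0.0446), and leaving out both gave 2.05 (SE 0.13; edgeR adjusted p = 2.01e-08; 40.3% of all genes). DESeq2 called this difference with all wells (1.28; adjusted p = 0.0305; 25.8% of all genes). So did limma-voom (1.55; adjusted p = 0.0198; 24% of all genes) and edgeR with at least 50 counts in 4 libraries (1.29; adjusted p = 0.0446; 27.8% of all genes). With another library left out the edgeR adjusted p against M452I was as high as 0.15, and in another setting as high as 0.125. The call against WT was lost without T288P+GDF11 replicate 1 (edgeR adjusted p = 0.0704) or replicate 3 (0.0592), and without WT replicate 1 (0.0618), replicate 2 (0.0756) or replicate 4 (0.0727). It was also lost without the low-count filter (log2 fold change 1.41; edgeR adjusted p = 0.0734). In release 29, 4.89% of the THBS1 exon bases are shared with FSIP1 on the opposite strand and 4.49% with an antisense gene.

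The remaining thrombospondin of the set, THBS2 (ENSG00000186340; chromosome 6, 169215780 to 169254044, minus strand), an inhibitor of angiogenesis, was listed at 0 in 15 libraries. The exception was T288P+GDF11 replicate 2, with 8 counts or 0.175 CPM. With counts in a single well, an exact permutation test of T288P+GDF11 against T288P could give only p = 1.00. SPP1 (ENSG00000118785; chromosome 4, 87975650 to 87983426, plus strand), the gene of osteopontin, an integrin ligand, had 0 counts in all 16 libraries, which allows up to 3 counts per library, or 0.0650 to 0.106 CPM (counting error only).

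FBLN1 (ENSG00000077942; chromosome 22, 45502238 to 45601135, plus strand) encodes fibulin-1, a fibronectin-binding glycoprotein of elastic fibres and basement membranes. Its wells lay on the other side of T288P than those of FN1. The T288P+GDF11 wells held 33.0, 36.5, 36.8 and 33.5 CPM, all below the T288P wells at 41.9, 40.2, 39.9 and 41.1 CPM. The log2 fold change was -0.22 (SE 0.07), just short of the threshold (edgeR adjusted p = 0.0568). DESeq2 called it (adjusted p = 0.0327; 18% of all genes), as did edgeR without M452I replicate 4 (adjusted p = 0.0304; 19.9% of all genes). It was not called without both wells that stood apart (edgeR adjusted p = 0.0681). With another library left out the edgeR adjusted p was as high as 0.179. Against M452I, at 37.2, 41.3, 41.4 and 35.3 CPM, the log2 fold change was -0.15 (SE 0.07; edgeR adjusted p = 0.15). Without M452I replicate 4 it was -0.20 (SE 0.08; edgeR adjusted p = 0.0465; 38.1% of all genes). Against WT, at 38.0, 36.5, 36.8 and 36.5 CPM, it was -0.08 with all wells (SE 0.07; edgeR adjusted p = 0.45). FBLN1 also had the smallest spread of the tested genes within T288P and WT, with a coefficient of variation of 2.2% and 1.96%.

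FBN1 (ENSG00000166147; chromosome 15, 48408306 to 48645849, minus strand), the fibrillin of tissue microfibrils, was low, at 1.66 to 3.10 CPM in T288P+GDF11, 1.41 to 2.76 in T288P, 1.40 to 3.08 in M452I and 1.69 to 2.24 in WT. Its log2 fold change with GDF11 was 0.27 against T288P (SE 0.29; edgeR adjusted p = 0.568). Against M452I it was 0.36 (SE 0.29; edgeR adjusted p = 0.386) with all wells and 0.69 without M452I replicate 4 (SE 0.27; edgeR adjusted p = 0.0501), where 38.1% of all genes were called. That well was far from its group in FBN1 itself, so the value without it is a description only. MATN2 (ENSG00000132561; chromosome 8, 97868840 to 98036716, plus strand), a matrilin that bridges matrix filaments, had 0 to 20 counts per library. It ranged from 0.177 to 0.372 CPM in T288P+GDF11, 0 to 0.359 in T288P, 0.0707 to 0.392 in M452I and 0.358 to 0.573 in WT, and no comparison called it (lowest edgeR adjusted p = 0.445). The SE of its log2 fold changes was 0.66 to 0.68, which at this depth leaves its differences poorly measured.

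**Figure D2:**
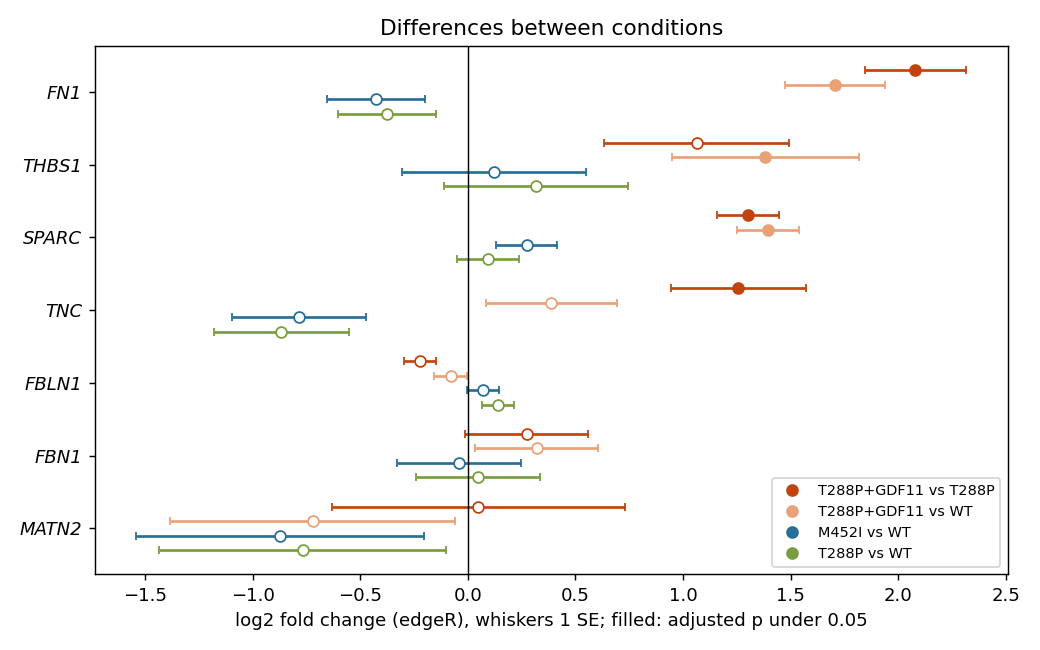
Log2 fold change (edgeR) of the 7 tested genes on the horizontal axis with whiskers of 1 SE, for 2 comparisons of T288P+GDF11 and for each mutant allele against WT. Filled points passed an adjusted p under 0.05, and all of them belong to FN1, SPARC, TNC or THBS1 in T288P+GDF11.

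Per kilobase of exon, THBS1 was also the most abundant of the set, with 72.3 CPM per kb in T288P+GDF11, 34.6 in T288P, 30.2 in M452I and 27.8 in WT. In T288P+GDF11 FN1 came next at 16.9 CPM per kb, then SPARC at 7.13 and FBLN1 at 4.80, with TNC at 0.498, FBN1 at 0.152 and MATN2 at 0.0367. In WT the order differed in its middle, with FN1 at 5.19 and FBLN1 at 5.07 CPM per kb, which are close to each other, and SPARC at 2.71. FBLN1 lay above FN1 per kilobase in T288P (5.60 and 4.01 CPM per kb) and in M452I (5.33 and 3.86). The summed level of the 9 genes was 944 to 1141 CPM in T288P+GDF11, 287.8 to 526 in T288P, 255 to 785 in M452I and 343 to 482 in WT, and FN1 with THBS1 made up 92.2% to 93.1%, 79.4% to 89.1%, 76.0% to 92.6% and 83.7% to 88.1% of it.

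The promoters of FN1, THBS1, SPARC and TNC are shown as the 250 bases before the RefSeq start (GRCh38.p14). Each of these genes was called as higher in at least 1 comparison of T288P+GDF11. For THBS1 that was the comparison with WT, where line and allele differ as well as GDF11. THBS1 was not called against T288P (edgeR adjusted p = 0.124). Of the 9 genes 8 had an entry, and 27195 promoters served as background. Capitals mark TGACGTCA (the cAMP response element), CATTCC (the core bound by TEAD factors) and TATAA (TATA box), searched on both strands. The windows are chr2:215436069-215436318 (minus strand) for FN1, chr15:39580829-39581078 (plus strand) for THBS1, chr5:151686916-151687165 (minus strand) for SPARC and chr9:115118158-115118407 (minus strand) for TNC. RefSeq and GENCODE starts differ for 3 of these genes: the SPARC window lies within the GENCODE span of its gene, and the FN1 and TNC windows overlap theirs in part.
FN1: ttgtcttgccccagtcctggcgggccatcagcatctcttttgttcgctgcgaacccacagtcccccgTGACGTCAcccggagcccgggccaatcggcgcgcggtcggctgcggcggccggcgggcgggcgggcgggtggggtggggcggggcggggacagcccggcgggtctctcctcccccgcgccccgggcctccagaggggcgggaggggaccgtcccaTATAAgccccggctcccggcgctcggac
THBS1: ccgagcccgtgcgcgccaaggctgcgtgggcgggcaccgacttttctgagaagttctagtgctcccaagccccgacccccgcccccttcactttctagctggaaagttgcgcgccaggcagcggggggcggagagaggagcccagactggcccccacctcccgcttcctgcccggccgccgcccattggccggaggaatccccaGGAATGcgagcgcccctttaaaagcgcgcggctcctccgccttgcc
SPARC: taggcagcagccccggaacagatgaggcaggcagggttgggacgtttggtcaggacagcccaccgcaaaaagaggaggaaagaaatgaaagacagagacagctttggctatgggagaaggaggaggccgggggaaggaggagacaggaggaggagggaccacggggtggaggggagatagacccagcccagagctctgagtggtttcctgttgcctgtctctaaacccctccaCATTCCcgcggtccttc
TNC: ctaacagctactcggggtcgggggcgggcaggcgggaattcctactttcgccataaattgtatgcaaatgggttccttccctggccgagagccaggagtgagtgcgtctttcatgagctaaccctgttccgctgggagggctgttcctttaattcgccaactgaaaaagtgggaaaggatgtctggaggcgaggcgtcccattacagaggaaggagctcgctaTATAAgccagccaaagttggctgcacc

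TGACGTCA occurred once in the FN1 window, beginning 183 bases before the start, and in no other window of the set, while 1.77% of all promoters held it. TATAA was found 28 bases before the start in FN1, 27 in TNC and 29 in THBS2, against 19.6% of all promoters with a match anywhere in the window. CATTCC was present in SPARC, THBS1, THBS2 and FBN1 and in 11.9% of all promoters. CAGAC, the short SMAD-binding box, matched in THBS1, TNC, THBS2, SPP1 and FBLN1 but had no match in FN1 or SPARC, and 37.8% of all promoters held it. TGACTCA (AP-1) and the palindrome GTCTAGAC matched in none of the 8 windows, and in 4.12% and 0.177% of all promoters. The GC content of the FN1 window was 76.4%, that of THBS1 69.6%, SPARC 59.2% and TNC 54.8%, against a median of 58% over all promoters. The letters are a description of these windows and do not show binding.

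The mutant alleles were compared with WT to ask what each allele changes without added ligand. With edgeR 0 of the 7 genes passed in either allele, where 0.0238% of all genes were called in M452I and 0.0417% in T288P. DESeq2 and limma-voom also called 0 of the 7, where DESeq2 called 0.149% of all genes in M452I and 0.459% in T288P, and limma-voom 0.0357% and 0.0536%. At an unadjusted p under 0.05, 1 of the 7 genes passed in each allele, where 6.3% of all genes did in M452I and 8.49% in T288P. That gene was TNC in both, averaging 2.12 ± 0.614 CPM in M452I and 2.01 ± 0.797 in T288P, against 3.66 ± 0.726 CPM in WT (SD, n = 4 each). Its log2 fold change was -0.78 in M452I (SE 0.31; edgeR adjusted p = 0.76) and -0.87 (SE 0.31) in T288P, with an edgeR adjusted p of 0.474. All 4 M452I wells lay below all 4 WT wells, as 2.31% of all genes did, while T288P replicate 4 overlapped the lowest WT well. The comparisons share the WT wells.

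FN1 averaged 66.9 ± 21.7 CPM in M452I and 69.4 ± 18.7 in T288P, against 89.8 ± 23.9 CPM in WT, with overlapping wells (edgeR adjusted p = 0.823 and 0.68). Without M452I replicate 4, the other 3 M452I wells held 51.5 to 59.2 CPM, below the lowest WT well at 66.2, and the log2 fold change moved to -0.68, against -0.43 with it, still short of the threshold (edgeR adjusted p = 0.147). That well was far from its group in FN1 itself, so the values without it are a description only and not support for a difference. SPARC was 15.8 ± 0.817 CPM in M452I and 13.1 ± 1.47 in WT, with every M452I well above every WT well, as for 1.78% of all genes, without passing (log2 fold change 0.27, SE 0.14; edgeR adjusted p = 0.812). FBLN1 was 40.8 ± 0.898 CPM in T288P and 37.0 ± 0.725 in WT, again without overlap, as for 2.1% of all genes, and without passing (log2 fold change 0.14, SE 0.07; edgeR adjusted p = 0.62). FBN1 and MATN2 overlapped between each allele and WT.

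For THBS1 the calls between alleles depended on the wells that stood apart. With all wells it averaged 277 ± 235 CPM in M452I, 317 ± 104 in T288P and 254 ± 42.9 in WT (SD, n = 4 each), and no comparison of these groups called it (lowest edgeR adjusted p = 0.908). Without M452I replicate 4 and T288P replicate 1 the means were 160 ± 22.0 CPM in M452I and 369 ± 18.9 in T288P (SD, n = 3 each). In that fit THBS1 was lower in M452I than in WT (log2 fold change -0.67, SE 0.13; edgeR adjusted p = 0.0178), where 3.72% of all genes were called. It was higher in T288P than in WT (0.54, SE 0.12; edgeR adjusted p = 0.0255), where 4.06% were called, and lower in M452I than in T288P (-1.20, SE 0.14; edgeR adjusted p = 0.000327), where 14.1% were called. In the first of these the sign turned, from a log2 fold change of 0.12 (SE 0.43) with all wells. The wells were singled out by their expression and not by a label, and both were far from their groups in THBS1 itself. Leaving them out narrows the spread of THBS1, so the adjusted p-values of that fit are a description and not support for a difference. With all 16 libraries M452I and T288P differed in 0 of the 7 tested genes with edgeR, against 0.00596% of all genes, and in 0 with DESeq2, against 0.0357%. At an unadjusted p under 0.05 the edgeR count was also 0, where 2.18% of all genes passed.

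**Figure D3:**
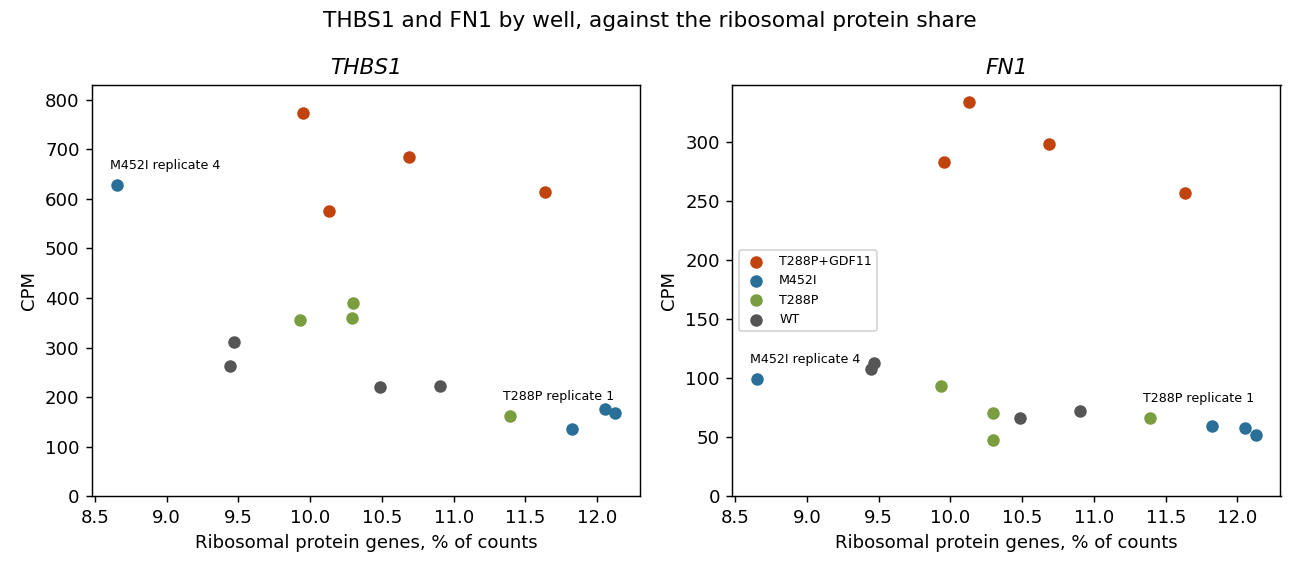
CPM of THBS1 and FN1 (linear vertical axes from 0) against the share of counts from ribosomal protein genes in percent, with a point for each of the 16 wells. M452I replicate 4 has the lowest share, 8.66%, and 628 CPM of THBS1, while T288P replicate 1 lies beside the other M452I wells.

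The ribosomal protein share and THBS1 are given together for the wells that stood apart. The M452I and T288P wells with 11.4% or more of it held 135 to 176 CPM of THBS1, and M452I replicate 4 with 8.66% held 628. The other T288P wells, at 9.93% to 10.3%, held 356 to 390.4 CPM, while the WT wells, at 9.44% to 10.9%, held 221 to 311 CPM, so wells with like shares differed in THBS1. The treated wells spanned 9.95% to 11.6% with 575 to 774 CPM. The part of this share in the THBS1 differences was not tested, nor was that of the marker sums that follow in any difference. Fibroblasts are rich in FN1 and SPARC, and their markers summed to 27.1 to 32.3 CPM in T288P+GDF11, 8.84 to 15.9 in T288P, 7.63 to 15.3 in M452I and 9.35 to 11.4 in WT over 9 genes. Of these COL3A1, LUM and THY1 were at 0 in all libraries and COL1A2 was at most 0.0573 CPM. Most of the sum came from FAP, at 3.18 to 26.5 CPM, and from COL1A1, at 3.95 to 7.003 CPM. Endothelial markers summed to 2.08 to 3.47 CPM in T288P+GDF11, 0.460 to 0.928 in T288P, 0.570 to 0.905 in M452I and 0.598 to 1.24 in WT over 4 genes. Over all wells PECAM1 was at 0.313 to 2.74 CPM, KDR at most 1.02, CDH5 at most 0.186 and VWF at most 0.112 CPM. Leukocyte markers, nearly all of it CD68, summed to 99.4 to 126 CPM in T288P+GDF11, 144 to 212 in T288P, 118 to 230.3 in M452I and 146 to 213 in WT, with PTPRC at most 0.241 CPM. The epithelial sum was 7307 to 8723 CPM in T288P+GDF11, 8813 to 11554 in T288P, 8689 to 12273 in M452I and 9943 to 10221 in WT.

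Genes whose levels ran most like those of the called genes were taken from 10229 candidates by Pearson's r of log2 CPM over the 16 libraries, as a description, with the libraries of a group sharing their condition. For FN1 these included SOX4, a transcription factor (r = 0.975), and MYO10, a filopodial myosin (r = 0.968). After the group means were removed the values were 0.892 and 0.790. SPARC ran most like LEMD1 (r = 0.961), KYNU (0.961), an enzyme of tryptophan breakdown, and TMBIM4 (0.946). With group means removed these were 0.574, 0.761 and 0.709. TNC ran most like the basal keratin KRT15 (r = 0.864), the ubiquitin ligase subunit FBXO32 (0.843) and GABRP, a GABA receptor subunit, and with group means removed these were 0.777, 0.597 and 0.570. THBS1 ran most like the nuclease GEN1 (r = 0.987), ZBED5 (0.981) and the long RNA LINC02188 (0.978), and with group means removed these were 0.978, 0.959 and 0.954. Among the set itself, FN1 and THBS1 had r = 0.803 over the 16 libraries and 0.563 with group means removed, while SPARC and TNC had 0.614 and 0.649, and THBS1 and FBN1 0.677 and 0.637.

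Related matrix genes were read from the same fit in T288P+GDF11 against T288P. Of 48 other matricellular proteins and glycoproteins, 20 were measured, and 3 rose, 1 fell and 16 did not pass (20% called against 12.9% of all genes, median log2 fold change 0.15 against -0.01 over all genes). The proteoglycan SPOCK1, of the SPARC family, rose to 4.61 ± 0.513 CPM in T288P+GDF11, against 1.99 ± 0.449 in T288P (a log2 fold change of 1.21, SE 0.25; edgeR adjusted p = 0.00407). SMOC1, a further SPARC-related protein, rose to 201 ± 22.8 CPM, against 122 ± 32.6 (0.73, SE 0.20; edgeR adjusted p = 0.0282), and the sushi-repeat protein SRPX to 20.4 ± 2.18 CPM, against 11.3 ± 1.34 (0.86, SE 0.17; edgeR adjusted p = 0.00368). Extracellular matrix protein ECM1 fell to 21.3 ± 2.71 CPM, against 30.8 ± 4.79 (-0.53, SE 0.14; edgeR adjusted p = 0.0179). SPOCK1 and SRPX were called whichever library was left out. The call of ECM1 was lost without T288P+GDF11 replicate 1 or T288P replicate 3. That of SMOC1 was lost without T288P+GDF11 replicate 1, 2 or 3 or T288P replicate 1 or 2. CCN2, a matricellular protein induced by TGF-beta, did not pass, at 3.74 ± 0.757 and 1.53 ± 0.924 CPM (edgeR adjusted p = 0.0514). Periostin (POSTN) and cartilage oligomeric matrix protein (COMP) had 0 counts in every library.

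Of 31 receptors and assembly partners 25 were measured, and 4 rose, 3 fell and 18 did not pass (28% called, median log2 fold change -0.10). The integrin chains ITGB6 and ITGAV, which pair as a receptor for fibronectin and latent TGF-beta, rose together. ITGB6 was 150 ± 22.9 CPM in T288P+GDF11 and 49.3 ± 7.63 in T288P, a log2 fold change of 1.60 (SE 0.15; edgeR adjusted p = 5.19e-06), and ITGAV 145 ± 22.2 and 97.8 ± 8.09 CPM (0.57, SE 0.14; edgeR adjusted p = 0.0126). The classical fibronectin receptor chains ITGA5, at 1093 ± 122 and 1200 ± 154 CPM, and ITGB1, at 1817 ± 75.1 and 2036 ± 108 CPM, did not pass (edgeR adjusted p = 0.459 and 0.175). Syndecan-1 (SDC1) fell to 1469 ± 148 CPM, against 2136 ± 262 (-0.54, SE 0.11; edgeR adjusted p = 0.00432), and the adhesion plaque proteins vinculin (VCL) and paxillin (PXN) fell by 0.52 and 0.40 on the log2 scale (edgeR adjusted p = 0.000995 and 0.00734). CD47, a thrombospondin-1 receptor, and the tensin TNS3 rose by 0.26 and 0.72 on the log2 scale (edgeR adjusted p = 0.0363 and 0.0405). The calls of CD47 and TNS3 depended on single wells. That of CD47 was lost without any 1 T288P+GDF11 well or without T288P replicate 1, 2 or 3, and that of TNS3 without T288P+GDF11 replicate 1 or 3 or without any 1 T288P well. The other 5 genes were called whichever library was left out.

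Of 30 crosslinking and processing genes 24 were measured, and 3 rose, 1 fell and 20 did not pass (16.7% called, median log2 fold change 0.21). The glycosyltransferase POGLUT3, which modifies EGF repeats of fibrillins, rose to 4.10 ± 0.799 CPM, against 1.49 ± 0.42 (log2 fold change 1.45, SE 0.33; edgeR adjusted p = 0.00787). POFUT2, which adds fucose to thrombospondin repeats, fell to 19.1 ± 1.82 CPM, against 26.4 ± 1.23 (-0.47, SE 0.10; edgeR adjusted p = 0.00432). The metalloprotease MMP7 rose to 3.27 ± 0.143 CPM, against 1.53 ± 0.395 (1.09, SE 0.29; edgeR adjusted p = 0.0203), and the lysyl oxidase homolog LOXL4 to 1.55 ± 0.162 CPM, against 0.636 ± 0.308 (1.28, SE 0.36; edgeR adjusted p = 0.0269). POGLUT3 and POFUT2 were called whichever library was left out. The calls of MMP7 and LOXL4 were lost without T288P+GDF11 replicate 1 or T288P replicate 1, and that of LOXL4 also without T288P+GDF11 replicate 3 or 4 or T288P replicate 2. In M452I and in T288P against WT, and in M452I against T288P, 0 genes of the 3 lists were called.

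**Figure D4:**
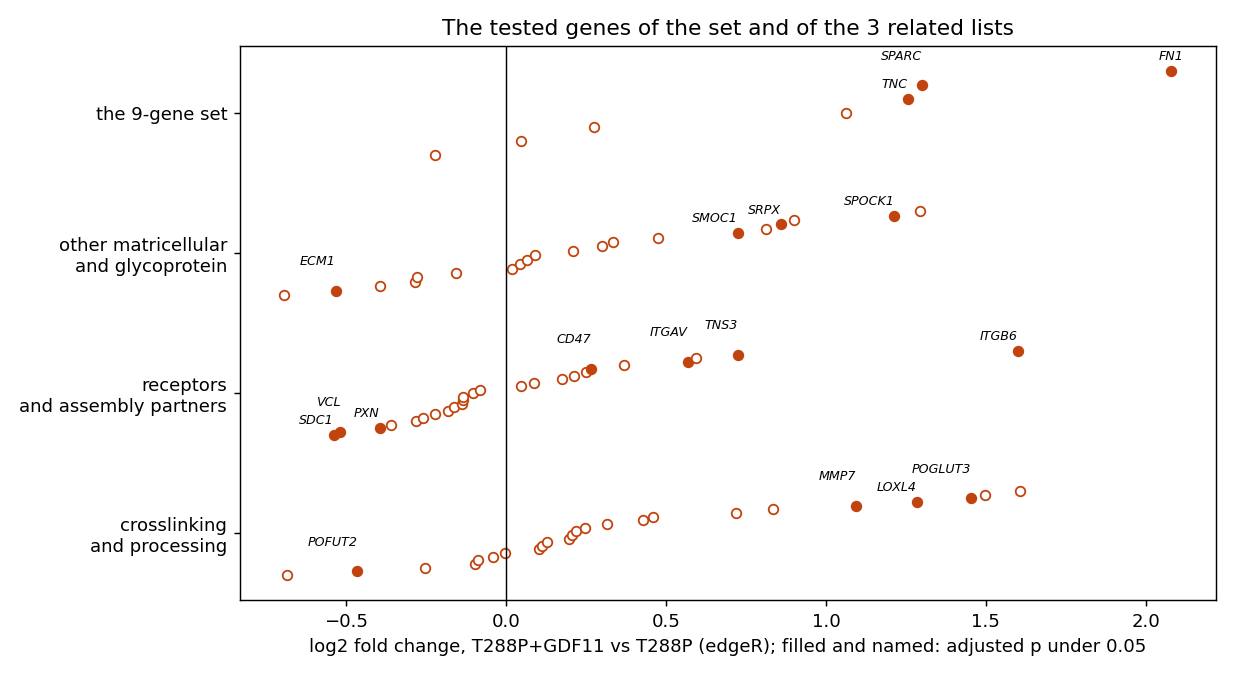
Log2 fold change of T288P+GDF11 against T288P (edgeR) for the 7 tested genes of the set and for the 20, 25 and 24 measured genes of the 3 related lists, with 1 point per gene, sorted within each list. Filled, named points passed an adjusted p under 0.05, and FN1 has the largest log2 fold change of those drawn, 2.08.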

How the data were processed

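The authors deposited whole-number counts per gene and library, not normalized. Per the submitters' processing notes, HISAT2 and StringTie 2.2.1 were used with GRCh38. No source used here gives the counting step, annotation release or strand setting. The ratio of counts of 1 to counts of 2 was 0.974 to 1.10, so both mates of a pair may have been counted.

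Tests ran in R 4.3.3 with edgeR 4.0.16: TMM, filterByExpr (minimum count 10), robust quasi-likelihood F test, all 16 libraries in 1 model without a covariate, Benjamini-Hochberg over 16790 genes, called under 0.05. The SE is the absolute log2 fold change over the square root of F. The scripts were tested on simulated data. The tested genes took 99.89% to 99.95% of each library. Intervals and limits cover counting error only. Alternatives were RLE, DESeq2 1.42.0, limma-voom 3.58.1, other filters, a fit of 2 groups, a replicate block, a 2-fold threshold and leaving out libraries.

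The members and lists were chosen with earlier results of these data known. All 9 members were named. From each list up to 5 called genes with the smallest adjusted p, and for each called member the 3 most alike genes (mean CPM of at least 3), were named, except 1 gene that is not reported here. CD47, TNS3, CCN2, ITGA5, ITGB1, POSTN and COMP were added after their values were seen. Coordinates and exon lengths are from GENCODE release 29 on GRCh38.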

Additional observations from a re-analysis of the deposited data

Results flagged for a closer look

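Among the 29 groups of 4 wells with differing values, 7 held a well far from the others by Dixon's test at the 95% level, which chance does in about 1 group of 20. M452I replicate 4 accounted for 3 of them, with 99.0 CPM of FN1 against 51.5 to 59.2 in the other M452I wells, 628 CPM of THBS1 against 135 to 176, and 3.08 CPM of FBN1 against 1.40 to 1.58. T288P replicate 1 held 162 CPM of THBS1, against 356 to 390.4 in the other T288P wells. M452I replicate 1 held 1.20 CPM of TNC, against 2.35 to 2.48. WT replicate 1 held 0.573 CPM of MATN2, against 0.358 to 0.390. T288P+GDF11 replicate 2 held 0.175 CPM of THBS2 (8 counts), with 0 in the other 3 wells, a case in which the test could come out only this way. The groups of different genes share their wells and are not independent, so their number cannot be set against the rate by chance.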

How the results depend on the processing

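The 42 log2 fold changes (7 genes, 6 comparisons) were recomputed in 999 fits of a gene under an alternative. In 941 the direction and the side of the threshold held, in 16 a call was gained, in 10 lost, and in 32 the sign turned, 1 of them with a call in the alternative only. Without M452I replicate 4 and T288P replicate 1, THBS1 was the 1 gene called in M452I against WT, in T288P against WT and in M452I against T288P, and 5 genes were called in T288P+GDF11 against M452I, where 40.3% of all genes were. Both wells were far from their groups in THBS1, so its calls in that fit are a description only. With DESeq2, 11 of the 25 measured receptors and assembly partners were called in T288P+GDF11 against T288P, where 18% of all genes were. At a change of at least 2-fold, 1 of them (ITGB6) and 1 other matricellular gene (SPOCK1) were called, with 3 crosslinking and processing genes and 3 genes of the set in each comparison of T288P+GDF11. The share of all genes called at that threshold was not computed, so these counts cannot be set against it.

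With a library left out in turn, the genes called numbered 2 to 5 in T288P+GDF11 against T288P and against M452I (5 without M452I replicate 4), 2 to 3 against WT, and 0 in the comparisons between alleles. The shares of all genes called in the same fits were 5.91% to 19.9% against T288P, 9.68% to 38.1% against M452I (19.9% and 38.1% without M452I replicate 4) and 21.4% to 33.9% against WT. The lists had 2 to 6, 5 to 11 and 2 to 7 called genes. The sign of differences that were not called turned within these ranges: in M452I against WT, THBS1 -0.67 to 0.35 and FBN1 -0.37 to 0.081, in T288P against WT, SPARC -0.044 to 0.18 and FBN1 -0.14 to 0.19, and for MATN2 -0.34 to 0.30 in T288P+GDF11 against T288P and -0.10 to 0.53 against M452I. In M452I against T288P they were FN1 -0.30 to 0.12, THBS1 -0.99 to 0.027, TNC -0.11 to 0.32, FBN1 -0.42 to 0.10 and MATN2 -0.49 to 0.16. With limma-voom THBS1 was -0.16 in M452I against WT, FBN1 -0.016 in T288P against WT and MATN2 0.31 in M452I against T288P. Without both wells THBS1 was -0.67 in M452I against WT. The cause of these turns was not tested.

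Same-numbered wells did not deviate together (24 correlations, -0.197 to 0.174, median -0.015, 4 over 0.1, with 3 of the 16 libraries correlating best with their own number), so the numbers are not taken as pairs. With the replicate number as a block FN1, SPARC and TNC were called against T288P (10.9% of all genes), FN1, SPARC and THBS1 against WT (27.2%), and these 4 against M452I (18.8%), where THBS1 was the gene added (log2 fold change 1.46, edgeR adjusted p = 0.0424). Under the block THBS1 was -0.068 in M452I against WT, FBN1 -0.0068 in T288P against WT, and 1 gene of all was called in T288P against WT.

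Over all genes, the calls numbered 1028 to 3435 (lowest without T288P replicate 1, highest without M452I replicate 4) in T288P+GDF11 against T288P with a library left out, against 2174 with all, and 1391 without the low-count filter. Against WT they were 3675 to 5864, against 4846 with all. Against M452I they were 1661 to 6578 (without M452I replicate 2 and 4), against 3558, 2261 in a fit of the 2 groups and 6941 without both wells. In M452I against WT there were 4, and 25 with DESeq2, 0 in a fit of the 2 groups, 1 to 9 with a library left out and 640 without both wells. T288P against WT gave 7, and 77, 11 without the filter, 1 to 29 and 698 without both wells. M452I against T288P gave 1, and 6, 0 and 2420. RLE scaling moved no median by 0.1. The counts behind MATN2, THBS2 and SPP1 limit what could be detected for them.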
